A study of Mus musculus with 3 samples.

Results

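Ribosome assembly and rRNA processing factors are the proteins that cut, modify and fold ribosomal RNA and join it to ribosomal proteins before the finished subunits leave the nucleus. The set described here holds 58 genes chosen by symbol from textbook roles in this pathway, with earlier results of these data known. Each symbol was found at a single locus of a table of 24401 loci. All 58 had a mean of 1 FPKM (fragments scaled by transcript length and by library size) or more over the libraries, as did 11858 loci in all. Their mean levels ran between 6.13 FPKM and 413 FPKM, with a median of 17.8 FPKM.

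RNA came from C2C12 myotubes, muscle fibres grown in culture from a mouse myoblast line, and the labels give "myoblast" as the cell type although the growth protocol describes differentiation. Before treatment all cultures spent 72 hours in a differentiation medium of DMEM, 2% horse serum and insulin at 1 µg/ml, and treatment lasted 24 hours. The resveratrol library came from myotubes in medium conditioned for 24 hours by S2-013 cells, a human pancreatic cancer line, with 50 µM of the plant polyphenol resveratrol added. The conditioned media library came from myotubes in the same kind of medium without resveratrol, and the control library from myotubes in DMEM. Each group is 1 library, so no SD, interval or p-value between cultures could be given. Resveratrol given without conditioned media was not analysed here. Per the labels' growth protocol the cells were grown in DMEM with 10% fetal bovine serum before differentiation, but the sources used here do not say how much serum the control and conditioned media of the treatment held.

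Ribosome building starts in the nucleolus, where RNA polymerase I makes a long precursor of the ribosomal RNAs. Small nucleolar ribonucleoproteins (snoRNPs) guide its methylation and pseudouridylation, the small subunit processome folds and cuts its first part, and a separate series of factors assembles the large subunit. In muscle this pathway is known to set the capacity for protein synthesis, and it is usually more active in growing myoblasts and in hypertrophy than in resting fibres.

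Nearly all of these genes had lower levels in conditioned media than in control. The set was chosen with earlier results of these data known, so its counts beside those of all loci are description only. Of the 58 genes, 57 had a log2 ratio below 0 for conditioned media over control, where 51.3% of all measured loci lay below 0, and the median log2 ratio was -0.55 against -0.011 over all loci. Rescaling the libraries left most genes below 0, at the fewest 54 of 58. All ratios were taken after adding 1 to each FPKM value, so those of low genes are understated. By size, 28 genes were lower by 1.5-fold or more (4.92% of all loci) and 4 were lower by 2-fold or more (0.751% of all loci), with 0 genes higher by either measure (7.43% and 1.98% of all loci). After rescaling to TPM 8 genes were lower by 1.5-fold and 1 by 2-fold. Their median was then -0.33, against 0.14 over all loci on that scale. At a pseudocount of 5 the counts were 14 and 2. The authors' deposited table calls 53 of the 58 lower and 0 higher, where it calls 29.9% of 10982 tested loci lower and 25.8% higher. Those calls compare 2 libraries and not the conditions. The standard errors that its fold changes and test statistics imply for these genes ran from 0.040 to 0.32 on the log2 scale, with a median of 0.17.

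With resveratrol in conditioned media the genes stayed near their conditioned media levels. For resveratrol over conditioned media the median log2 ratio was 0.081 against 0.025 over all loci, and 43 genes lay above 0 (52.5% of all loci) and 15 below it (47.4%). No gene reached 2-fold, with counts of 0 higher (1.53% of all loci) and 0 lower (4.97%). Past 1.5-fold, 2 genes were higher (7.59%) and 0 lower (12.6%). The authors' deposited table calls 19 of the 58 higher (34.1% of tested loci) and 7 lower (29.5%). For resveratrol over control the median was -0.50 against 0.00021 over all loci, with 51 genes below 0 (49.9%) and 7 above (50.0%). By size, 22 genes were lower by 1.5-fold or more (14.0%) and 1 higher (11.4%), while 2 were lower by 2-fold or more (5.25%) and 0 higher (3.60%). After rescaling to TPM 7 genes were lower by 1.5-fold and 0 by 2-fold. Their median was then -0.29, against 0.14 over all loci on that scale. Equal sums over loci longer than 200 bases, which moved the median of all loci to -0.13, gave 6 lower by 2-fold. The authors' deposited table calls 45 lower and 4 higher in that comparison, where it calls 34.1% of tested loci in each direction. Control was the highest of the 3 libraries for 51 genes, against 34.2% of all measured loci, and conditioned media the lowest for 42 genes, against 29.9%. The comparisons share libraries, so a low value in conditioned media lowers the first ratio and raises the second.

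**Figure D1:**
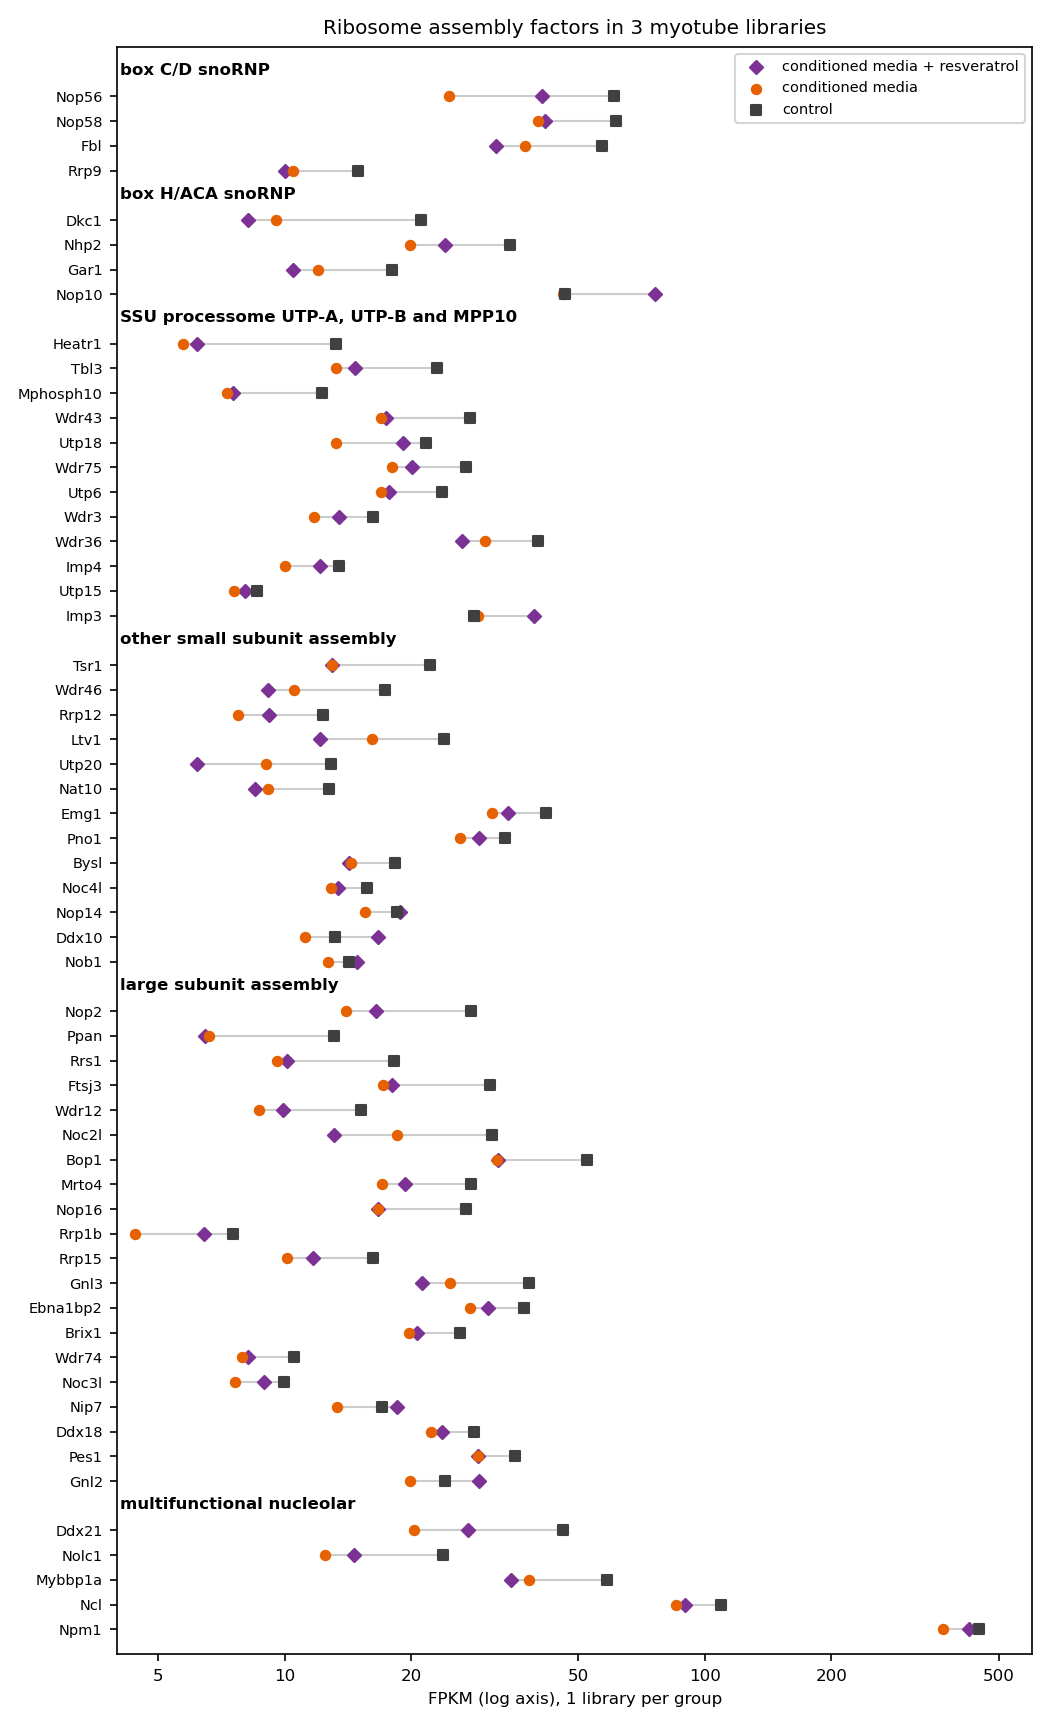
FPKM of each of the 58 genes (rows, grouped by role) on a log axis, with a diamond for conditioned media with resveratrol, a circle for conditioned media and a square for control, 1 library each. The control square is the rightmost point for 51 genes, and Nop10 and Imp3 are among the 7 genes whose rightmost point is the resveratrol diamond.

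The promoters of 4 of these genes are shown because they carry the range of the data: Nop56, which had the lowest conditioned media ratio, Heatr1 and Nop2 with low ratios, and Imp3, the gene whose ratio was above 0. Each is the RefSeq sequence of GRCm38.p6 (the mm10 build) from 250 bases before to 50 bases after the annotated start, on the + strand, at chr2:130274162-130274461 for Nop56, chr13:12395125-12395424 for Heatr1, chr6:125131633-125131932 for Nop2 and chr9:56937250-56937549 for Imp3. Capitals mark matches on either strand to CACGTG, the E-box that MYC and related factors bind, and to CCGGAAG, an ETS-type motif.
Nop56: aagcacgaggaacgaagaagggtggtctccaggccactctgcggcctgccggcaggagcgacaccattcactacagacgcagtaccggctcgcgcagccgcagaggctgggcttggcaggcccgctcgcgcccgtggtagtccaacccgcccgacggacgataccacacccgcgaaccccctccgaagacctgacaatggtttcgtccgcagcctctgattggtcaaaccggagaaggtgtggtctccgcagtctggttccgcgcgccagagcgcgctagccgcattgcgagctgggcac
Heatr1: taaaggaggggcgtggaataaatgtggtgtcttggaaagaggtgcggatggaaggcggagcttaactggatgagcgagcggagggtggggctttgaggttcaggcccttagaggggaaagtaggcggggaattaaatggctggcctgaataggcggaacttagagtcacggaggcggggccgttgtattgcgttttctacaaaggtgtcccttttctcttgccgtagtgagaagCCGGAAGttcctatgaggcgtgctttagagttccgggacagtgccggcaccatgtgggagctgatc
Nop2: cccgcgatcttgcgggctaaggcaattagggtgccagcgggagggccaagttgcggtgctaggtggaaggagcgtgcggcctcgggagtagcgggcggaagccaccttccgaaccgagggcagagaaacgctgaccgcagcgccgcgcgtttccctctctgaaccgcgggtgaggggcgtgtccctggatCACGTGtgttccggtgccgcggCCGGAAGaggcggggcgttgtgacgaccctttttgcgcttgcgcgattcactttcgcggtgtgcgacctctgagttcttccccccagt
Imp3: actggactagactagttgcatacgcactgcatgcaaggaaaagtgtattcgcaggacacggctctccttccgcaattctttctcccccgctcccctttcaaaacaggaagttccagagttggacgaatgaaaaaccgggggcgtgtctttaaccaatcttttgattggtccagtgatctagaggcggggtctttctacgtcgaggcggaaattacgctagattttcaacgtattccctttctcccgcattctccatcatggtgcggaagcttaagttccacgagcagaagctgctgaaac

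The box C/D snoRNP group holds core proteins of the particles that carry out ribose methylation, and Rrp9 of the U3 snoRNP. These 4 genes were lower in conditioned media, with a median log2 ratio of -0.60. Nop56, a scaffold protein of these particles, was at 40.9 FPKM with resveratrol, 24.6 FPKM in conditioned media and 60.8 FPKM in control. Its log2 ratio of -1.27 for conditioned media over control was the lowest of the 58 genes (q = 0.000148 in the authors' deposited table). The resveratrol value lay between the others, with a log2 ratio of 0.71 over conditioned media and -0.56 over control. The Nop56 locus of the deposited table, a span that 4 loci share, covers positions 130274412 to 130284451 of chromosome 2 in mm10. Nop58, the partner scaffold, was at 41.6 FPKM with resveratrol, 40.2 FPKM in conditioned media and 61.3 FPKM in control, so that its resveratrol value did not move toward control as that of Nop56 did. Fbl, fibrillarin, the methyltransferase itself, was at 31.8 FPKM with resveratrol, 37.3 FPKM in conditioned media and 56.8 FPKM in control. It was the lowest of this group with resveratrol, at a log2 ratio of -0.22 over conditioned media (q = 0.016 in the authors' deposited table) and -0.82 over control. Rrp9, a protein of the U3 snoRNP that guides early cuts of the precursor, was at 10.0 FPKM with resveratrol, 10.5 FPKM in conditioned media and 14.9 FPKM in control. Its ratios of -0.47 for conditioned media over control and -0.53 for resveratrol over control were the nearest to 0 in the group.

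The box H/ACA snoRNPs, which convert uridine to pseudouridine and also bind telomerase RNA, split between their 4 core proteins. Dkc1, dyskerin, the pseudouridine synthase, was at 8.18 FPKM with resveratrol, 9.53 FPKM in conditioned media and 21.1 FPKM in control. Its log2 ratios were -1.07 for conditioned media over control and -1.27 for resveratrol over control, and the second of these was the lowest of the 58 genes in its comparison (q = 0.000148 for both in the authors' deposited table). Resveratrol over conditioned media gave -0.20, which the authors' deposited table does not call (q = 0.167). The Dkc1 locus of the deposited table, a span that 2 loci share, covers positions 75095854 to 75131016 of the X chromosome. Nhp2, a core RNA-binding subunit, was at 24.0 FPKM with resveratrol, 19.9 FPKM in conditioned media and 34.5 FPKM in control, with a conditioned media ratio of -0.77. Gar1, the subunit that helps substrate release, was at 10.5 FPKM with resveratrol, 12.0 FPKM in conditioned media and 18.0 FPKM in control. Both were thus lower than control in each conditioned media library. Nop10, the smallest core subunit, was at 76.0 FPKM with resveratrol, 46.0 FPKM in conditioned media and 46.5 FPKM in control. Its log2 ratio was -0.015 for conditioned media over control, and 0.17 after rescaling to TPM (the first with q = 0.917 in the authors' deposited table), and 0.71 for resveratrol over conditioned media and 0.70 over control, the highest values of the 58 genes in both (q = 0.000148 in the authors' deposited table).

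Of 12 genes of the small subunit processome's UTP-A, UTP-B and MPP10 subcomplexes, 11 lay below 0 for conditioned media over control (51.3% of all loci). The median log2 ratio of the 12 was -0.51. UTP-A binds the precursor first and is also needed for its transcription. Heatr1, the largest UTP-A protein, was at 6.18 FPKM with resveratrol, 5.72 FPKM in conditioned media and 13.3 FPKM in control. Its log2 ratio of -1.08 (q = 0.000148 in the authors' deposited table) was the lowest of the 12. With resveratrol over control it was -0.99, just inside 2-fold only because 1 was added to each FPKM value. The authors' deposited log2 fold change for that comparison was -1.10. The gene spans positions 12395375 to 12438893 of chromosome 13. Wdr43, also of UTP-A, was at 17.4 FPKM with resveratrol, 17.0 FPKM in conditioned media and 27.7 FPKM in control. For Wdr75 the values were 20.1 FPKM with resveratrol, 18.0 FPKM in conditioned media and 26.9 FPKM in control. In contrast, Utp15 of the same subcomplex was at 8.03 FPKM with resveratrol, 7.60 FPKM in conditioned media and 8.60 FPKM in control, a conditioned media ratio of -0.16 that the authors' deposited table does not call (q = 0.218).

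The 5 UTP-B proteins, most of them built of WD repeats, were all lower in conditioned media (51.3% of all loci), with a median log2 ratio of -0.46. Tbl3 was at 14.7 FPKM with resveratrol, 13.2 FPKM in conditioned media and 23.1 FPKM in control. Utp18, which in yeast brings the RNA exosome to the processome, was at 19.2 FPKM with resveratrol, 13.2 FPKM in conditioned media and 21.7 FPKM in control. Its ratio of 0.50 with resveratrol over conditioned media (q = 0.000148 in the authors' deposited table) was the highest of the 12, and over control it stood at -0.17 (q = 0.0979). Utp6 was at 17.7 FPKM with resveratrol, 17.0 FPKM in conditioned media and 23.7 FPKM in control. Wdr3 had 13.5 FPKM with resveratrol, 11.7 FPKM in conditioned media and 16.3 FPKM in control. Both kept the order of conditioned media lowest and control highest. Wdr36 was at 26.5 FPKM with resveratrol, 29.9 FPKM in conditioned media and 40.1 FPKM in control, and its resveratrol over conditioned media ratio of -0.17 was the lowest of the 12.

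The MPP10 subcomplex, which in yeast helps the U3 snoRNA pair with the precursor, was not uniform. Mphosph10, its scaffold, was at 7.54 FPKM with resveratrol, 7.29 FPKM in conditioned media and 12.3 FPKM in control. Imp4 was at 12.1 FPKM with resveratrol, 10.0 FPKM in conditioned media and 13.5 FPKM in control. Imp3 was at 39.3 FPKM with resveratrol, 28.9 FPKM in conditioned media and 28.2 FPKM in control. It alone had a conditioned media ratio above 0, at 0.035, which became -0.052 with equal sums over loci longer than 200 bases (the first with q = 0.812 in the authors' deposited table), and its ratios of 0.43 over conditioned media and 0.46 over control with resveratrol are called higher in that table (q = 0.000148 for both).

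The 13 other genes of small subunit assembly had a median log2 ratio of -0.41 for conditioned media over control, the nearest to 0 of the 6 role groups. All 13 lay below 0 (51.3% of all loci), and the authors' deposited table calls 11 of them lower (29.9% of tested loci). Tsr1, a GTPase-like protein of late precursors, was at 13.0 FPKM with resveratrol, 13.0 FPKM in conditioned media and 22.2 FPKM in control, the lowest conditioned media ratio of the group at -0.73. Rrp12, needed for export of the precursors, was at 9.18 FPKM with resveratrol, 7.74 FPKM in conditioned media and 12.3 FPKM in control. Bysl, bystin, was at 14.2 FPKM with resveratrol, 14.4 FPKM in conditioned media and 18.3 FPKM in control. All 3 thus had control as their highest library. Nob1, the endonuclease of the final cut of small subunit rRNA, was instead highest with resveratrol, at 14.9 FPKM with resveratrol, 12.7 FPKM in conditioned media and 14.2 FPKM in control. Its conditioned media ratio of -0.15 (q = 0.196 in the authors' deposited table) was the nearest to 0 in the group. Pno1, the partner of Nob1, was at 29.0 FPKM with resveratrol, 26.1 FPKM in conditioned media and 33.4 FPKM in control.

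A few genes of this group were lowest with resveratrol. Utp20, a large processome protein, was at 6.18 FPKM with resveratrol, 9.03 FPKM in conditioned media and 12.9 FPKM in control. Its log2 ratios were -0.48 with resveratrol over conditioned media, the lowest of the 58 genes, and -0.95 over control (q = 0.000148 for both in the authors' deposited table). Ltv1, an assembly factor released before the final steps, was at 12.1 FPKM with resveratrol, 16.1 FPKM in conditioned media and 24.0 FPKM in control, with ratios of -0.38 and -0.93 in the same comparisons. Wdr46, Nat10 and Bysl had the same order, with resveratrol over conditioned media ratios nearer to 0 at -0.19 for Wdr46, -0.094 for Nat10 and -0.020 for Bysl. Wdr46 was at 9.13 FPKM with resveratrol, 10.5 FPKM in conditioned media and 17.3 FPKM in control, a ratio of -0.85 with resveratrol over control. Nat10, the acetyltransferase of rRNA cytidines, was at 8.51 FPKM with resveratrol, 9.15 FPKM in conditioned media and 12.8 FPKM in control. In all, 15 of the 58 genes had this order, resveratrol lowest and control highest. The share of all loci with this order is not given here.

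The other members of the group were closer together. Emg1, a methyltransferase acting on a pseudouridine of small subunit rRNA, was at 34.0 FPKM with resveratrol, 31.1 FPKM in conditioned media and 41.8 FPKM in control. Noc4l was at 13.4 FPKM with resveratrol, 12.9 FPKM in conditioned media and 15.7 FPKM in control. Nop14, its partner, was at 18.8 FPKM with resveratrol, 15.6 FPKM in conditioned media and 18.5 FPKM in control, so that resveratrol and control differed by a log2 ratio of 0.022 (q = 0.786 in the authors' deposited table). These genes differed between libraries by less than most of the set. The helicase gene Ddx10 was at 16.7 FPKM with resveratrol, 11.2 FPKM in conditioned media and 13.2 FPKM in control. It had the highest resveratrol ratios of the group, 0.53 over conditioned media (q = 0.000148 in the authors' deposited table) and 0.32 over control (q = 0.021).

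All 20 genes of large subunit assembly were lower in conditioned media than in control (51.3% of all loci), with a median log2 ratio of -0.65. The authors' deposited table calls all 20 lower, where it calls 29.9% of tested loci lower. Nop2, an rRNA methyltransferase, was at 16.5 FPKM with resveratrol, 14.0 FPKM in conditioned media and 27.8 FPKM in control. Its ratio of -0.94 was the lowest of the group. Ppan was at 6.46 FPKM with resveratrol, 6.61 FPKM in conditioned media and 13.1 FPKM in control, a ratio of -0.89. Rrs1, which brings the 5S particle into the precursor, was at 10.1 FPKM with resveratrol, 9.57 FPKM in conditioned media and 18.2 FPKM in control, a ratio of -0.86. Ftsj3, also a methyltransferase, was at 18.0 FPKM with resveratrol, 17.2 FPKM in conditioned media and 30.8 FPKM in control, a ratio of -0.81. In each of these the resveratrol value lay near the conditioned media value, with ratios over control of -0.72 for Nop2, -0.92 for Ppan, -0.79 for Rrs1 and -0.74 for Ftsj3.

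The PeBoW complex of Pes1, Bop1 and Wdr12 is needed to mature the large subunit rRNAs. Wdr12 was at 9.89 FPKM with resveratrol, 8.68 FPKM in conditioned media and 15.2 FPKM in control. Bop1 was at 32.1 FPKM with resveratrol, 32.0 FPKM in conditioned media and 52.4 FPKM in control. Pes1, pescadillo, was at 28.9 FPKM with resveratrol, 28.9 FPKM in conditioned media and 35.4 FPKM in control. All 3 were lower in conditioned media than in control, with ratios of -0.74 for Wdr12, -0.70 for Bop1 and -0.28 for Pes1. None of the 3 is called higher (34.1% of tested loci) or lower (29.5%) for resveratrol over conditioned media in the authors' deposited table.

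The NOC proteins, which move precursors out of the nucleolus, differed under resveratrol. Noc2l was at 13.1 FPKM with resveratrol, 18.5 FPKM in conditioned media and 31.2 FPKM in control. Its ratios of -0.46 over conditioned media and -1.19 over control were the lowest of the group with resveratrol (q = 0.000148 for both in the authors' deposited table). Noc3l was at 8.94 FPKM with resveratrol, 7.63 FPKM in conditioned media and 9.97 FPKM in control, so its resveratrol value lay above conditioned media. The nucleolar GTPases split in the same way. Gnl3, nucleostemin, was at 21.3 FPKM with resveratrol, 24.7 FPKM in conditioned media and 38.1 FPKM in control, a ratio of -0.81 with resveratrol over control. Gnl2 was at 28.9 FPKM with resveratrol, 19.8 FPKM in conditioned media and 24.0 FPKM in control. Its ratios with resveratrol, 0.52 over conditioned media and 0.26 over control, were the highest of the group (q = 0.000148 for both in the authors' deposited table), while its conditioned media ratio of -0.27 was the nearest to 0.

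Among the remaining large subunit factors, conditioned media was the lowest library for most. Rrp1b was at 6.44 FPKM with resveratrol, 4.42 FPKM in conditioned media and 7.53 FPKM in control, with a ratio of 0.46 with resveratrol over conditioned media. Nip7 was at 18.5 FPKM with resveratrol, 13.3 FPKM in conditioned media and 17.0 FPKM in control, with a ratio of 0.44. Resveratrol was thus nearer to control in these genes. Mrto4, a factor that holds the place of a stalk protein, was at 19.3 FPKM with resveratrol, 17.1 FPKM in conditioned media and 27.8 FPKM in control. Nop16 had 16.7 FPKM with resveratrol, 16.7 FPKM in conditioned media and 26.9 FPKM in control. Rrp15 had 11.7 FPKM with resveratrol, 10.1 FPKM in conditioned media and 16.3 FPKM in control. These were lower by 1.5-fold or more in conditioned media. Smaller differences were seen in Ebna1bp2, at 30.4 FPKM with resveratrol, 27.7 FPKM in conditioned media and 37.0 FPKM in control. Brix1 was at 20.7 FPKM with resveratrol, 19.8 FPKM in conditioned media and 26.1 FPKM in control. Ddx18, an RNA helicase, was at 23.7 FPKM with resveratrol, 22.3 FPKM in conditioned media and 28.2 FPKM in control. Resveratrol lay between the other libraries in all 3. The last of the group, Wdr74, had the widest implied standard error in each comparison of the authors' deposited table, 0.33 on the log2 scale for resveratrol over conditioned media, at 8.19 FPKM with resveratrol, 7.92 FPKM in conditioned media and 10.5 FPKM in control.

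The genes of nucleolar proteins with several functions were also lower in conditioned media, all 5 of them (51.3% of all loci). Their median log2 ratio was -0.61. Ddx21, a helicase of RNA polymerase I transcription and rRNA processing, was at 27.3 FPKM with resveratrol, 20.4 FPKM in conditioned media and 46.0 FPKM in control. Its log2 ratio of -1.14 was the lowest of these 5 (q = 0.000148 in the authors' deposited table), and with resveratrol it was 0.41 over conditioned media and -0.73 over control. Ddx21 spans positions 62580247 to 62602298 of chromosome 10. Nolc1, a chaperone of snoRNPs, was at 14.7 FPKM with resveratrol, 12.5 FPKM in conditioned media and 23.8 FPKM in control, a conditioned media ratio of -0.88. Mybbp1a, a repressor of rRNA synthesis that also takes part in processing, was at 34.5 FPKM with resveratrol, 38.1 FPKM in conditioned media and 58.5 FPKM in control. It was the 1 gene of these that was lowest with resveratrol, at -0.14 over conditioned media and -0.74 over control. The highest levels of all belonged to Npm1 and Ncl. Ncl, nucleolin, was at 89.6 FPKM with resveratrol, 85.5 FPKM in conditioned media and 109 FPKM in control. Npm1, nucleophosmin, was at 424 FPKM with resveratrol, 368 FPKM in conditioned media and 448 FPKM in control. These had small ratios, -0.35 for Ncl and -0.29 for Npm1 in conditioned media over control. Npm1 stood at 0.21 with resveratrol over conditioned media and -0.080 over control (q = 0.000675 in the authors' deposited table).

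**Figure D2:**
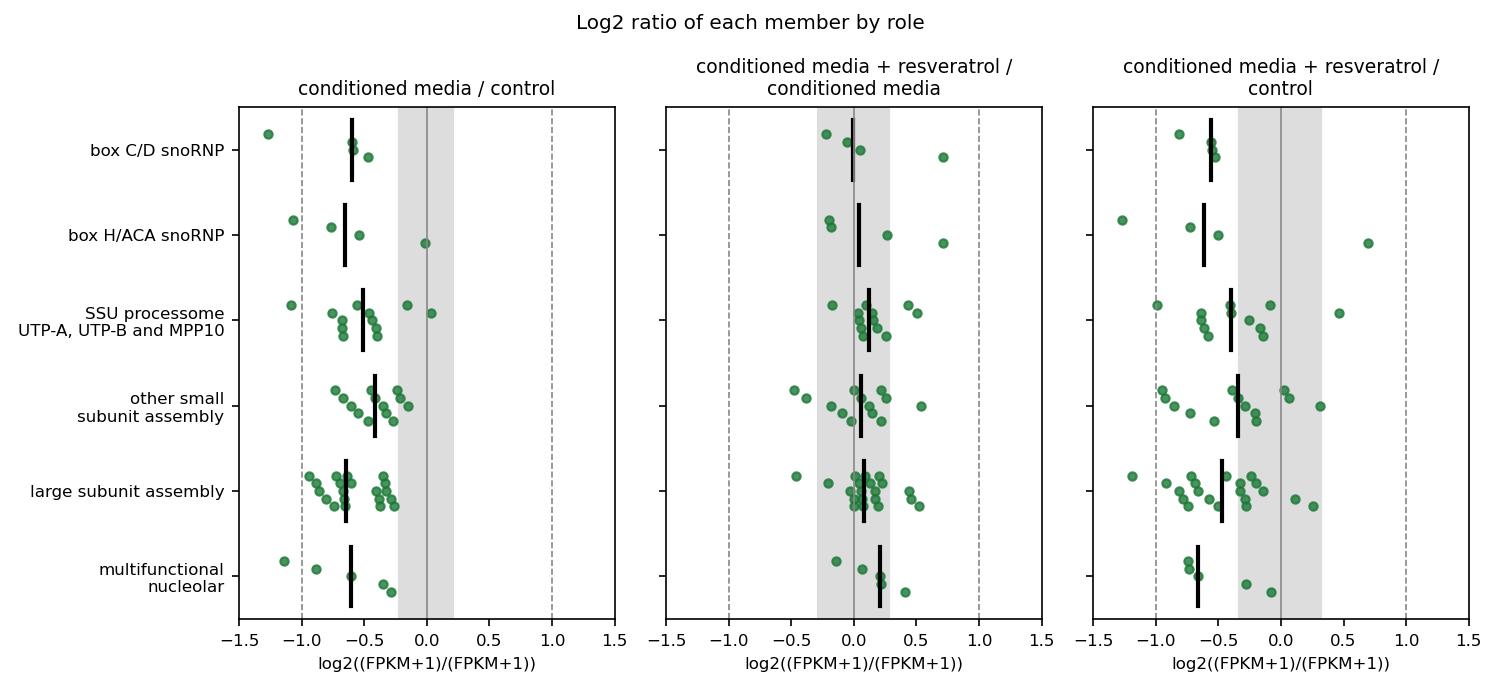
Log2 ratio of FPKM + 1 for each gene (points) by role group, with the group median as a black bar, the interquartile range of all 11858 measured loci in grey and dashed lines at 2-fold. In conditioned media over control every group median lies left of the grey band, between -0.66 and -0.41, and in resveratrol over conditioned media every group median lies inside it.

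By role, the medians for conditioned media over control lay close together. The lowest was -0.66 for the box H/ACA snoRNP group and the highest -0.41 for the other small subunit genes, a gap smaller than the range within each group. For resveratrol over conditioned media the medians ran from -0.0037 for box C/D to 0.21 for the multifunctional nucleolar proteins, and for resveratrol over control from -0.67 for the multifunctional proteins to -0.34 for other small subunit assembly. Level and ratio were hardly related across the genes, with a Spearman coefficient of 0.13 between mean FPKM and the conditioned media over control ratio over 58 genes, which come from the same libraries and are not independent.

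Further assembly genes went the same way with smaller ratios. A list of 81 other ribosome assembly factors had 79 that were measured. Of these, 65 lay below 0 for conditioned media over control (51.3% of all loci), with a median of -0.34 over the 79. After rescaling to TPM, 56 lay below 0 with a median of -0.13. By size, 12 were lower by 1.5-fold or more (4.92% of all loci) and 0 higher (7.43%), and the authors' deposited table calls 57 lower (29.9% of tested loci) and 6 higher (25.8%). The lowest was Mdn1, the large AAA ATPase of large subunit maturation, at 2.49 FPKM with resveratrol, 3.15 FPKM in conditioned media and 7.87 FPKM in control (ratio -1.10). It was followed by Nol9 (-0.80), Dhx37 (-0.79), Mak16 (-0.77) and Rbm28 (-0.76). At the other end stood Riok3 (0.48), Gltscr2 (0.47), Nufip1 (0.35), Tsr3 (0.28) and Sbds (0.23), so the pathway was not lower throughout. Gltscr2, the nucleolar protein now called Nop53, was at 60.1 FPKM with resveratrol, 43.2 FPKM in conditioned media and 30.9 FPKM in control. With resveratrol over conditioned media this list had a median of 0.19. There the authors' deposited table calls 40 of its genes higher (34.1% of tested loci) and 9 lower (29.5%). For resveratrol over control its median was -0.12, which became 0.055 after rescaling to TPM, where the median of all loci was 0.14.

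The neighbouring steps of ribosome production differed in direction. Of 15 genes of RNA polymerase I and its factors, 14 lay below 0 for conditioned media over control (51.3% of all loci), with a median of -0.14. By size, 2 were lower by 1.5-fold or more (4.92% of all loci). On the TPM scale the 15 genes had a median of 0.041, with 7 below 0. That was still under the value for all loci there, a median of 0.14. Polr1b, the second largest polymerase subunit, was at 4.27 FPKM with resveratrol, 5.06 FPKM in conditioned media and 9.38 FPKM in control. It had the lowest ratios of the 15 genes, -0.78 for conditioned media over control and -0.98 for resveratrol over control. The highest ratio of the list for conditioned media over control was 0.35, and its median for resveratrol over control was -0.0045. Of 76 cytosolic ribosomal protein genes, 73 lay above 0 for conditioned media over control (48.7% of all loci), with a median of 0.13. With resveratrol the medians were 0.25 over conditioned media and 0.37 over control. These medians stayed above 0 under each rescaling, at the lowest 0.036 for conditioned media over control. Assembly factors and ribosomal proteins therefore lay on opposite sides of 0 in conditioned media over control, a difference that has no test between cultures. Myc, a transcription factor known to drive many assembly genes, was at 21.1 FPKM with resveratrol, 24.5 FPKM in conditioned media and 20.7 FPKM in control, a conditioned media ratio of 0.23 (q = 0.00386 in the authors' deposited table). Myc was highest in the library in which most assembly genes were lowest, and any part of Myc in their levels was not tested.

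**Figure D3:**
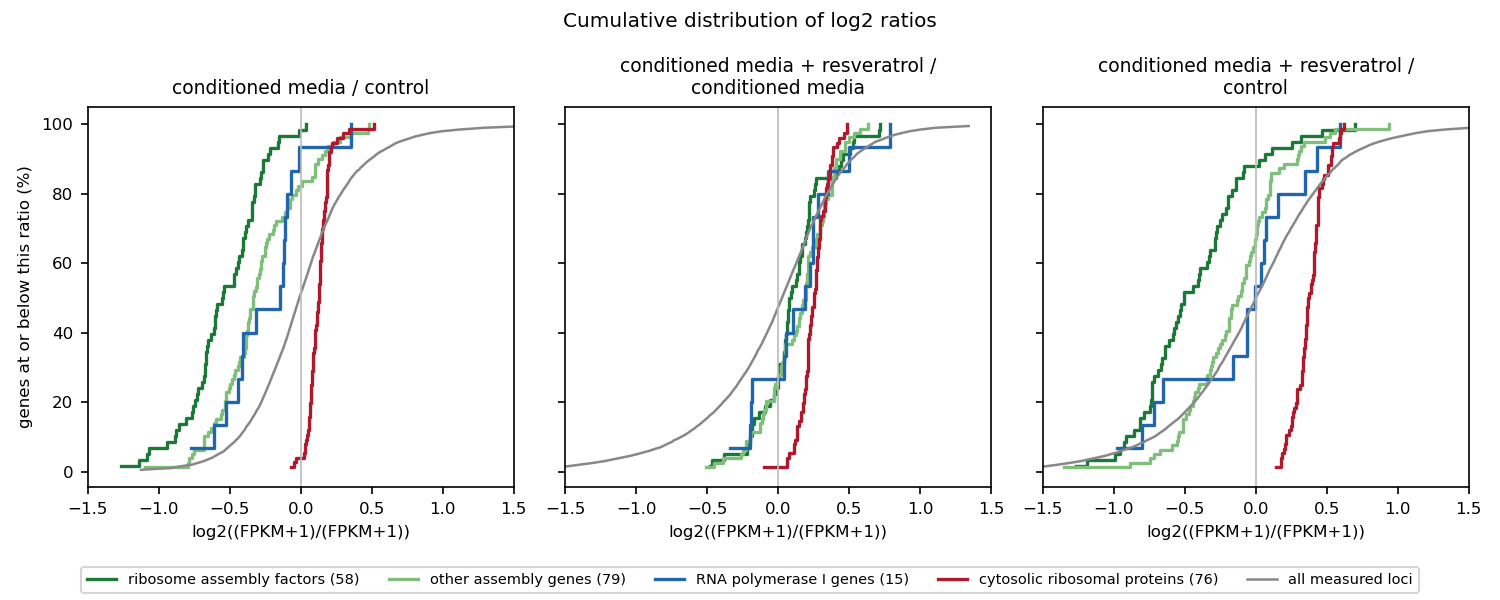
Cumulative percent of genes at or below each log2 ratio for the 58 assembly factors, 79 other assembly genes, 15 RNA polymerase I genes, 76 cytosolic ribosomal proteins and all measured loci. In conditioned media over control the assembly factors lie furthest left (median -0.55) and the ribosomal proteins right of 0 (median 0.13), and in resveratrol over conditioned media the assembly factors lie at a median of 0.081.

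Motif matches were more frequent in these promoters than in those of measured protein-coding genes, a description with no test. RefSeq promoters were matched for 49 of the 58 genes, the others being Wdr36, Utp6, Fbl, Gnl2, Rrs1, Rrp12, Tbl3, Npm1 and Bop1. CACGTG was found in 11 of the 49 (22.4%), against 12.0% of 8337 measured protein-coding genes and 8.09% of all 27025 genes with a promoter. CCGGAAG was found in 21 of the 49 (42.9%), against 21.0% of measured protein-coding genes and 9.93% of all genes. The share was similar in other lists of ribosome production, with CCGGAAG in 42.4% of 59 other assembly genes and 39.3% of 56 ribosomal protein genes, although the last differed from the assembly factors in direction. For CACGTG those lists had 16.9% and 10.7%. Both strands were searched. The motifs cannot overlap each other, but CCGGAAG can overlap its own reverse complement. Median GC content was 59.3% in the 49 genes and 61.3% in measured protein-coding genes. The median conditioned media over control ratio was -0.61 in the 11 genes with CACGTG and -0.51 in the 38 without it, and -0.63 in the 21 with CCGGAAG and -0.47 in the 28 without it. Of the promoters printed above, that of Nop2 holds both motifs and that of Nop56, the gene with the lowest ratio, neither. A match describes these letters in this window and not a bound site.

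**Figure D4:**
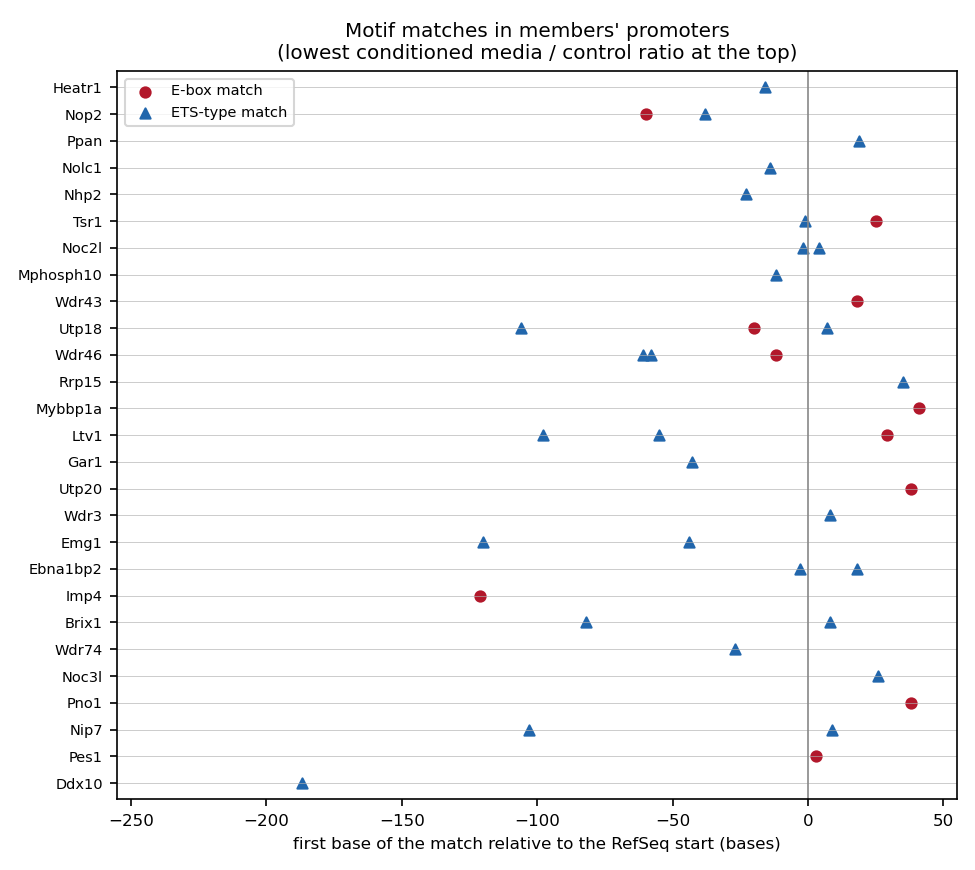
Position of each CACGTG (circle) and CCGGAAG (triangle) match relative to the RefSeq start in the promoters of the 27 genes that hold at least 1 match, ordered by the conditioned media over control ratio with the lowest at the top. Matches lie between 187 bases before and 41 bases after the start, and genes with and without low ratios hold them.

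Several features of the genes and of the libraries bear on how these values can be read. Some values may include reads of other transcripts, since 8 of the 58 genes hold 23 snoRNA genes on their strand in GENCODE M21, the same build. Those 8, Nop56, Nop58, Dkc1, Wdr43, Tsr1, Ppan, Gnl3 and Ncl, had a median of -0.71 for conditioned media over control, against -0.47 in the 50 others. In 23 genes exon bases overlap a gene on the other strand, over 10% of them in Tbl3 (37.3%), Tsr1 (32.3%), Noc2l (20.9%) and Wdr3 (16.2%), and whether counting used strand is not stated in the sources used here. Wdr46 and Mrto4 have processed pseudogenes with their names. In the deposited table, 19 of the 58 genes have a span that other loci share. That of Gnl3 is shared by 7 loci and that of Nob1 by 6. The part of these features in the results was not tested. In the 30 genes with no small RNA gene, shared exon base or named pseudogene, 29 lay below 0 for conditioned media over control (51.3% of all loci). Their median was -0.47, and some of them, such as Nob1 and Noc4l, have a span that other loci share. Among the 7 myotube markers the summed level was 4528 FPKM with resveratrol, 3081 FPKM in conditioned media and 3280 FPKM in control, so muscle genes were abundant in each library. With resveratrol over conditioned media 6 of the 7 lay above 0 (52.5% of all loci). The other, Ckm, was at 43.2 FPKM with resveratrol, 56.3 FPKM in conditioned media and 60.8 FPKM in control. The 5 cycling cell markers summed to 38.8 FPKM with resveratrol, 161 FPKM in conditioned media and 126 FPKM in control. All 5 lay above 0 in conditioned media over control (48.7% of all loci). The 4 myoblast and reserve cell markers summed to 66.8 FPKM with resveratrol, 63.9 FPKM in conditioned media and 78.2 FPKM in control, but its genes differed in direction. Myod1, which makes up most of the sum, was at 51.7 FPKM with resveratrol, 28.2 FPKM in conditioned media and 48.2 FPKM in control. Notch3 was at 12.1 FPKM with resveratrol, 25.7 FPKM in conditioned media and 18.0 FPKM in control. Myf5 was at 2.69 FPKM with resveratrol, 9.23 FPKM in conditioned media and 10.9 FPKM in control, and Pax7 was at 1.04 FPKM or less in each library. The 4 fibroblast markers summed to 51.1 FPKM with resveratrol, 59.6 FPKM in conditioned media and 33.0 FPKM in control, with Thy1 and Lum below 1 FPKM in each library. Adipocyte markers summed to at most 0.458 FPKM. The part of these cells in the results was not tested, and in bulk RNA fewer cells of a type cannot be told apart from less RNA per cell.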

How the data were processed

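RNA sequencing of 3 libraries, 1 per group, was analysed from the authors' deposited Cuffdiff gene table. The submitters' processing notes name Cuffdiff 2.2.1.3 and Cufflinks 2.2.1.0, alignment tools Bowtie and TopHat2 2.1.0, read tools Trim Galore 0.4.3.1 and FastQC 0.69, and the mm10 build. Annotation, strand setting and library scaling are not stated in the sources used here. Per the file headers, the deposited values are FPKM per library with the authors' log2 fold change, a test statistic (a score), p-values and q-values. Table starts were raised by 1 to 1-based positions. Depth is unknown, since FPKM carry no counts, and among 4286 low loci the most frequent ratio between libraries recurred 9 times, so steps of whole reads were not found.

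Log2 ratios were computed as log2((FPKM + 1)/(FPKM + 1)) over the 11858 loci with a mean of 1 FPKM or more (Python 3.11.15, pandas 2.3.3, numpy 2.4.6), and the size rules were 2-fold and 1.5-fold on this scale. The ratios and counts were tested on simulated data. With 1 library per group there was no test of the conditions. Implied standard errors are the authors' log2 fold change divided by their statistic. Members, role groups and lists were chosen with earlier results of these data known. Every member is named with its FPKM. Ratios are given for the 10 largest in each comparison, the ends of each role group, and some others chosen after their values were seen, and the 5 highest and 5 lowest other assembly genes are named. Polr1b, Ckm and the myoblast markers were also named after their values were seen. Of the 81 listed, 2 were not matched by symbol, and 1 of 77 ribosomal protein symbols. Small RNA genes, exon overlaps and pseudogenes came from GENCODE M21. Alternatives changed the pseudocount, filter, scaling and gene set.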

Additional observations from a re-analysis of the deposited data

How the results depend on the processing

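The direction of the members' median was the same in all alternatives run for each of the 3 comparisons. For conditioned media over control, a pseudocount of 5 gave 2 genes lower by 2-fold, 14 lower by 1.5-fold and a median of -0.44. Rescaling to TPM gave 1, 8 and -0.33, with 4 genes above 0. This rescaling moved the median of all loci to 0.14, and it follows the 78.4% to 83.0% of summed FPKM in loci of 200 bases or less. Equal sums over longer loci left 0 genes above 0. Without genes that hold a small RNA gene, 2 were lower by 2-fold, and the authors' deposited calls give 53 lower. For resveratrol over conditioned media, 1 gene was higher by 1.5-fold without genes that hold a small RNA gene, and the authors' deposited calls give 19 higher and 7 lower. For resveratrol over control, 5 genes were lower by 2-fold at a pseudocount of 0.1. At a pseudocount of 5 it was 0, with a median of -0.40. TPM, which moved the median of all loci to 0.14, gave 0 lower by 2-fold and 7 lower and 2 higher by 1.5-fold. It left 12 above 0 and a median of -0.29. Equal sums over longer loci, which moved the median of all loci to -0.13, gave 6 lower by 2-fold, 0 higher by 1.5-fold, 4 above 0 and a median of -0.65. Without genes that hold a small RNA gene, 1 was lower by 2-fold and the median was -0.40, and the authors' deposited calls give 4 higher and 45 lower. A set chosen after seeing the data left out genes with a small RNA gene, a shared exon base or a named pseudogene, so 30 genes remained and counts fell with it. It gave 1 lower by 2-fold, 11 lower by 1.5-fold and 29 below 0 for conditioned media over control. For resveratrol over conditioned media it gave 1 higher by 1.5-fold, 25 above 0 and 5 below. For resveratrol over control it gave 0 lower by 2-fold, 11 lower by 1.5-fold, 25 below 0 and a median of -0.39. The resveratrol over conditioned media medians of the box C/D group (0.0016 at a pseudocount of 5) and of the box H/ACA group (-0.018 with equal sums over longer loci) changed sign. For the 10 genes with the largest ratios in each comparison, 233 values were recomputed, of which 200 moved by less than 1 implied standard error, 33 by more, and 0 changed sign. Outside these, Imp3 and Nop10 changed sign in conditioned media over control under 1 rescaling each, and so did the RNA polymerase I median, all checked after seeing the data. The cause of these shifts was not tested beyond what the construction of each alternative shows. No paired analysis was possible because each group holds 1 library. Unknown depth limits the precision of low genes.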
